A study of Mus musculus with 12 samples.

Results

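The genes described here encode nuclear subunits of the mitochondrial respiratory chain, that is, complexes I to IV of the electron transport chain together with the ATP synthase, complex V. Members were all genes whose official mouse symbol starts with Ndufa, Ndufb, Ndufc, Ndufs, Ndufv, Sdha to Sdhd, Uqcr, Cox4 to Cox8 or Atp5, with the assembly factors Ndufaf and Sdhaf left out. The array carried 114 probes for 85 such genes, out of 20886 named genes, with 38 genes in complex I, 4 in complex II, 8 in complex III, 18 in complex IV and 17 in complex V. Of the 85, 82 passed the filter on dim probes and were tested among 13919 genes. The 3 that did not pass were the isoform genes Cox7b2 and Cox8c, which were not well above background on any array in either channel, and Cox8b, which was on 0 arrays in co-cultured cells and 2 in cells alone.

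The respiratory chain passes electrons from NADH (at complex I) and from succinate (at complex II) through ubiquinone, complex III and cytochrome c to complex IV, where oxygen is reduced. Complexes I, III and IV pump protons across the inner mitochondrial membrane, and the ATP synthase uses the returning protons to make ATP. Most subunits are encoded in the nucleus and imported, while a small set of core subunits of complexes I, III, IV and V is encoded by mitochondrial DNA. In fat cells the chain supplies ATP for lipid storage in white adipocytes and heat in brown adipocytes. Several subunits of complex IV and of the ATP synthase have more than one nuclear gene, some of them used mainly in muscle, testis or brown fat.

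The cells were 3T3-L1, a mouse embryo fibroblast line used as pre-adipocytes, grown either together with RAW264.7, a mouse macrophage line held apart from them by a porous insert, or alone. By the design of the study, both cultures of an array had the same treatment for 6, 24 or 48 h. The treatment was none (NT), serotonin (S, 100 µM), cortisol (C, 100 µM) or cortisol with serotonin (CS, 100 µM each). The medium was renewed after 24 h. Each of the 12 combinations had 1 array, on which RNA of co-cultured cells was labelled with Cy5 and RNA of cells alone with Cy3. Values are log2 ratios of co-culture over alone, so 1 is 2-fold higher and -1 is 2-fold lower in co-cultured cells. There was no dye swap, so a dye effect of a probe cannot be told apart from an effect of co-culture, and each time lay on a slide of its own, so time and slide cannot be told apart either. Both cultures are of 1 cell line, so the arrays do not sample separate animals.

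The 4 treatments of a time served as its 4 arrays in the limma fit, which had additive terms for time and treatment and 6 residual degrees of freedom. A gene was called higher or lower when the adjusted p (Benjamini-Hochberg over all genes tested) was under 0.05 and the ratio was at least 1.5-fold, and all errors after ± are the SE of that fit unless an SD is named. Nothing in the labels says that the cultures of a time were grown separately, so p-values measure only the spread between these arrays.

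Between 19949 and 22824 of the 39429 probes were well above background in co-cultured cells, against 18443 to 21368 in cells alone, and 0 spots were saturated. Of 13 genes listed as responding to cortisol, 12 had a level on the 6 h arrays, 11 on the CS array at 24 h and 13 on the others. Their median level in cells alone stood above the NT array of the same time by 0.82, 0.73 and 0.80 (log2) on the C arrays at 6, 24 and 48 h. It stood at 1.19, -0.27 and 0.84 on the CS arrays and at 0.57, 0.39 and 0.17 on the S arrays. In cells alone the CS library at 24 h thus stood below NT, and the S libraries at 6 and 24 h above it. In co-cultured cells the same arrays stood at 0.62 (CS, 24 h), 0.08 (S, 6 h) and 0.19 (S, 24 h). The labels of these 3 arrays are therefore in doubt for cells alone, and results are given without them where that changed them. Whether both cultures of these arrays had the same hormone was not tested. The fibroblast marker genes (8 of 8 tested, among them Col1a1 and Thy1) were measured in both cultures, with a summed signal of 276000 to 296000 in co-cultured cells and 324000 to 355000 in cells alone at 48 h, and 3 of them (Col3a1, Pdgfra and Fbn1) were lower then. Of the markers of mature fat cells, Adipoq was well above background on 0 arrays and Plin1 on 1 array in co-cultured cells and 2 in cells alone, so these 2 were at or near background. Lep was above background on 11 arrays in co-cultured cells and 3 in cells alone and Cidec on 4 in each, whereas Fabp4 and Pparg were on all 12 in both cultures, with Fabp4 lower in co-cultured cells at 48 h (-0.79). Of 11 macrophage markers 8 were tested, with a summed signal of 7750 to 11500 in co-cultured cells against 5410 to 7840 in cells alone at 48 h. They were higher in 4, 2 and 5 of the 8 at 6, 24 and 48 h, beside 4.37%, 4.66% and 14.5% of all genes. At 48 h Ctss (1.53) and Csf1r (1.11) were the highest, whereas Cd14 (0.07) and Lyz2 (-0.19) were not called. Ptprc, Fcgr1 and Adgre1 were at or near background. The part of the macrophage markers in the ratios below was not tested. In a bulk sample fewer cells of a type and less RNA per cell cannot be told apart.

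At 6 and 24 h few respiratory chain genes were called, and at 48 h 28 of 82 were called, most of them lower in co-cultured cells. At 6 h, 2 members were higher and 0 lower, with 4.37% of all genes tested called higher and 5.23% called lower. At 24 h, 2 were higher and 2 lower, against 4.66% higher and 3.68% lower over all genes. At 48 h, 8 members (9.76%) were higher and 20 (24.4%) lower, against 14.5% higher and 16.7% lower over all genes. On loess-corrected arrays the share called lower at 48 h was thus above that of all genes and the share called higher below it, and no test of the list was made. On arrays only centred on their median, without loess, both relations turned round: 18 members (22%) were higher and 18 (22%) lower at 48 h, against 11.4% higher and 26.1% lower over all genes. With a 2-fold minimum, 3 members (3.66%) were higher and 5 (6.1%) lower, close to the 6.35% of all genes called lower and under the 5.68% called higher. The 2 members higher at 6 h, Cox7a1 and Uqcrh, were also the 2 higher at 24 h and were among the 8 at 48 h. The 2 lower at 24 h were Atp5pb and Cox7c. The low counts at 6 and 24 h depended on the intensity-dependent loess correction: on arrays that were only centred on their median, 60 members were higher and 0 lower at both times, with member medians of 0.97 and 0.98 beside 0.23 and 0.39 for all genes, of which 25% and 33.2% were then higher and 1.62% and 0.769% lower. Without the 3 arrays in doubt, 2 members were higher and 1 lower at 6 h, and 2 higher and 3 lower at 24 h.

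On loess-corrected arrays the median member lay close to 0 at every time, at 0.01, -0.06 and -0.07 at 6, 24 and 48 h. All genes then had medians of -0.02, 0.00 and -0.01. On arrays only centred on their median, member medians were 0.97, 0.98 and 0.11, beside 0.23, 0.39 and -0.15 for all genes. With loess, the times differed in the spread of members about the median rather than in the median. The SD over members was 0.24 and 0.29 at 6 and 24 h and 0.64 at 48 h, beside 0.37, 0.36 and 0.67 over all genes. The 4 arrays of a time differed much less, with a median SD per member of 0.08, 0.09 and 0.08, beside 0.11, 0.14 and 0.13 per gene over all genes. At 48 h, 71 of 82 members had the same sign on all 4 arrays, beside 50 of 73 at 24 h and 45 of 77 at 6 h among those measured on 4 arrays. Signs were not counted over all genes, so this cannot be read as particular to the members. Across the 82 genes, which are not independent replicates and share slides, the correlation between pairs of arrays of a time was 0.80 to 0.94 at 6 h, 0.81 to 0.92 at 24 h and 0.97 to 0.99 at 48 h.

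**Figure D1:**
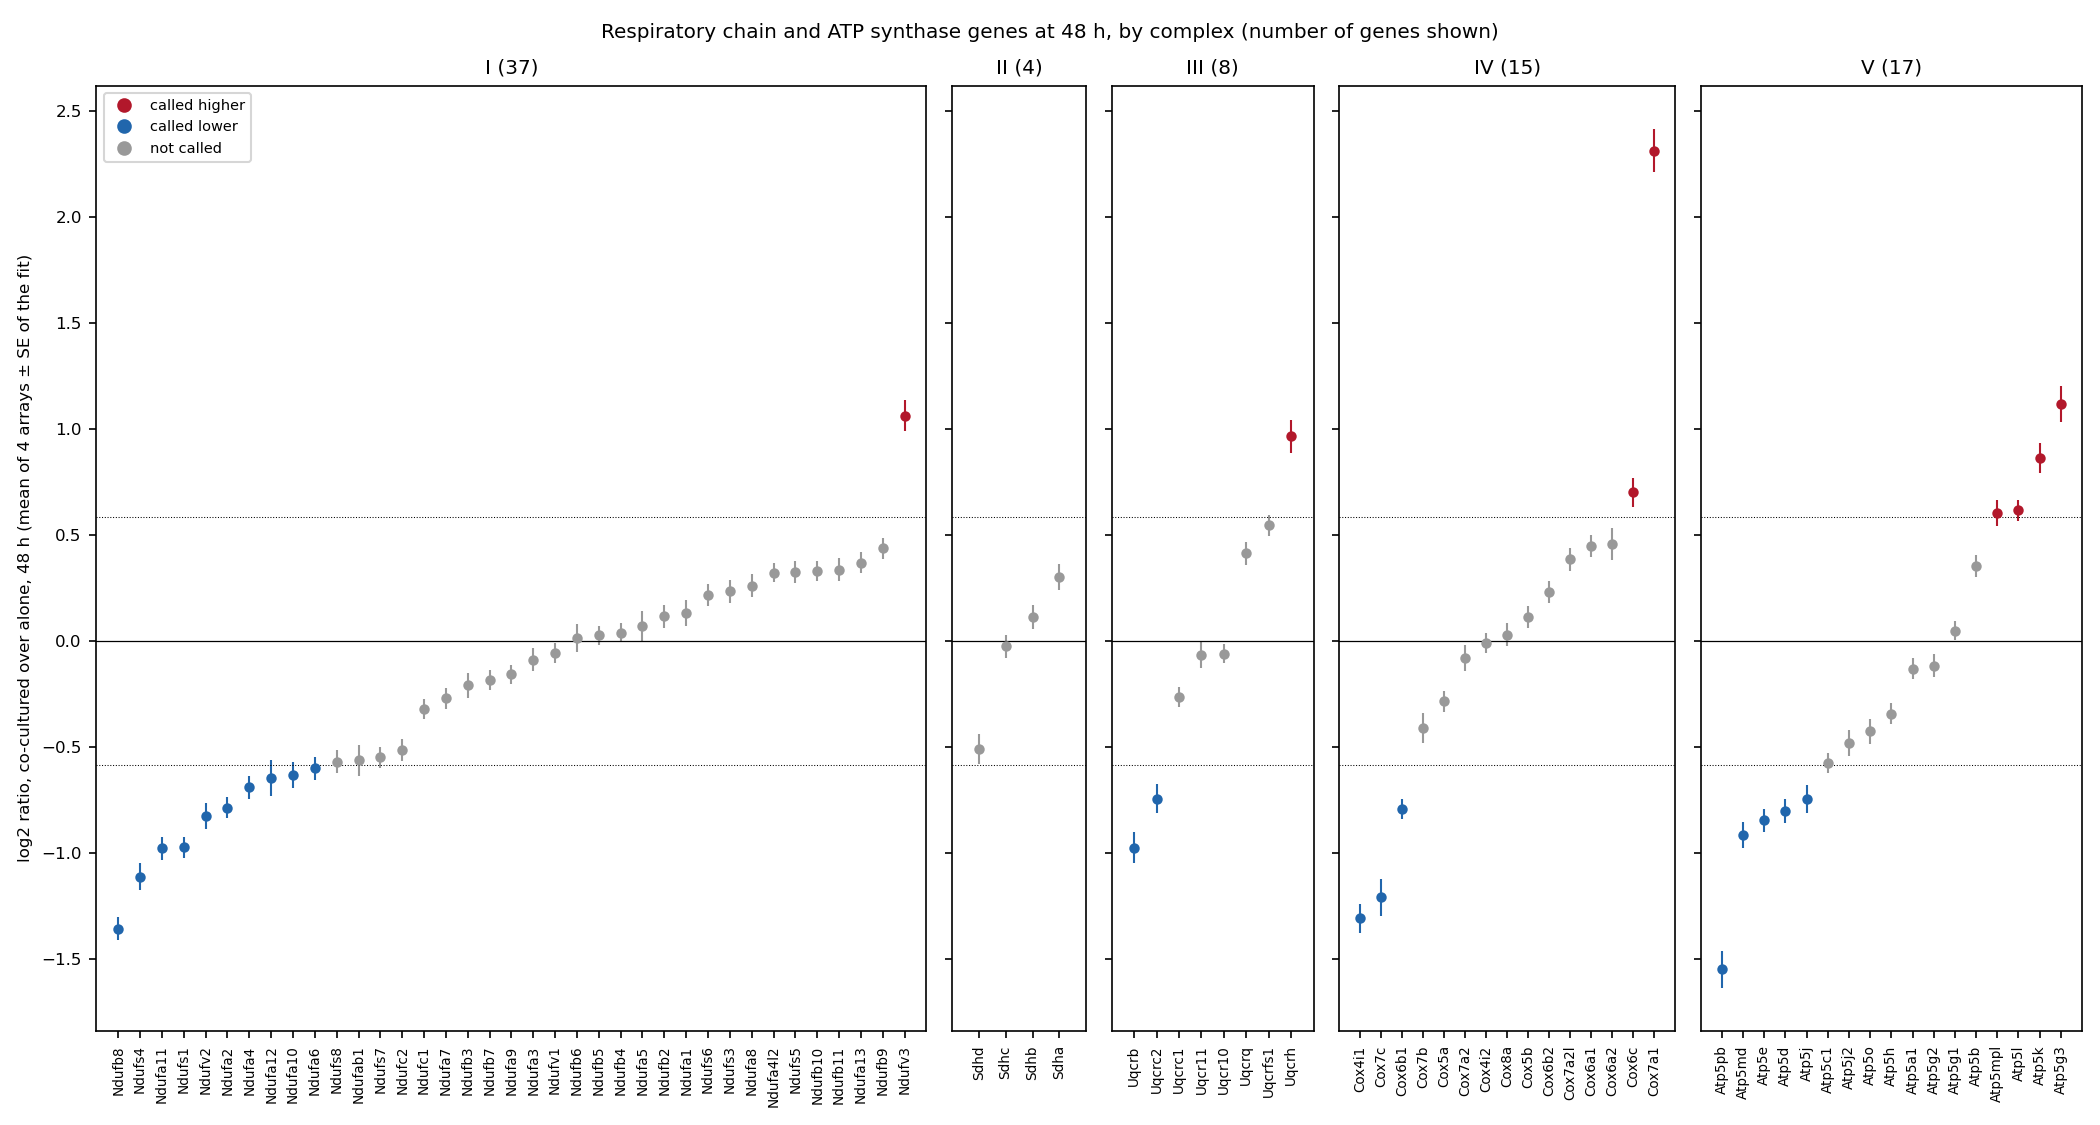
Fitted log2 ratio of co-culture over alone at 48 h for 81 of the 82 members tested, in 1 panel per complex and sorted by value, with the SE of the fit as bars, red for called higher, blue for called lower, grey for not called, and dotted lines at 1.5-fold. Complex I held 10 of the 20 genes called lower, and the extremes were Cox7a1 at 2.31 and Atp5pb at -1.55.

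The counts were uneven over the complexes at 48 h, and differences between complexes were not tested. Complex I had 1 gene higher and 10 lower among 38, and its median was -0.12. Complex II had 0 calls among 4 genes by their brightest probes (median 0.04). Complex III had 1 higher and 2 lower among 8 (median -0.06). Complex IV had 2 higher and 3 lower among the 15 tested (median 0.03). Complex V had 4 higher and 5 lower among 17 and the lowest median, -0.34. When arrays were only centred on their median, without the intensity-dependent loess correction, these medians were 0.01 in complex I, 0.19 in II, 0.22 in III, 0.24 in IV and -0.07 in V, so the sign of the medians of complexes I and III flipped. Under that centring 18 members were higher and 18 lower at 48 h (50% of the calls higher, against 28.6% with loess), and all genes had 11.4% higher and 26.1% lower, and a median of -0.15 beside 0.11 for the members. None of the 28 members called at 48 h turned its sign under it.

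Complex I takes electrons from NADH, and its 7 nuclear core subunits carry the flavin and the iron-sulfur clusters. At 48 h 2 of the 7 were lower and 0 higher, and their median was -0.55. Ndufs1, the largest iron-sulfur subunit, had ratios of -0.87, -0.98, -0.98 and -1.07 on the NT, S, C and CS arrays at 48 h, and 0.03, -0.24, -0.13 and -0.13 at 6 h. All 4 arrays at 48 h thus lay below all 4 at 6 h, and the gene was 1.97-fold lower in co-cultured cells at 48 h (-0.97 ± 0.05, limma adjusted p = 3.69e-08). Ndufv2, another iron-sulfur subunit of the NADH-binding part, was at -0.83 ± 0.06. Ndufs8 and Ndufs7 stood at -0.57 and -0.55, just short of the 1.5-fold threshold, while Ndufv1, the flavin-bearing subunit, was at -0.06 and Ndufs3 at 0.23, none of them called.

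The 31 accessory subunits of complex I, which surround the core and are needed for its assembly and stability, had 1 higher and 8 lower at 48 h. Ndufb8, an accessory subunit of the membrane arm, gave -1.29, -1.41, -1.36 and -1.38 on the 4 arrays at 48 h (NT, S, C and CS), against -0.13, -0.29, -0.38 and -0.16 at 6 h. These sets did not overlap, and the gene was 2.56-fold lower in co-cultured cells at 48 h (-1.36 ± 0.05, limma adjusted p = 1.82e-08). Ndufs4, an accessory subunit of the matrix arm whose loss causes Leigh syndrome in humans, gave -0.86, -1.17, -1.15 and -1.27 at 48 h and -0.04, -0.19, -0.09 and -0.01 at 6 h. It was 2.16-fold lower at 48 h (-1.11 ± 0.06, limma adjusted p = 8.13e-08). Ndufa11 (-0.98 ± 0.05), Ndufa2 (-0.79 ± 0.05), Ndufa12 (-0.65 ± 0.09), Ndufa10 (-0.63 ± 0.06) and Ndufa6 (-0.60 ± 0.05) were lower as well. Ndufa4, at -0.69 ± 0.05, is counted here by its symbol, although its protein is now regarded as a subunit of complex IV.

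Ndufv3, a small accessory subunit next to the NADH-binding site, was the 1 member of complex I called higher. It gave 1.14, 1.07, 1.04 and 1.01 on the NT, S, C and CS arrays at 48 h, 0.43, 0.67, 0.61 and 0.50 at 24 h and 0.14, 0.36, 0.46 and 0.63 at 6 h. By this brightest probe every array at 48 h lay above every earlier one, and the gene was 2.09-fold higher in co-cultured cells at 48 h (1.06 ± 0.07, limma adjusted p = 2.43e-07). A second Ndufv3 probe gave 0.54, 0.64 and 0.49 at 6, 24 and 48 h and was called higher at 24 h only. Its arrays at 48 h (0.38 to 0.77) overlapped those at 6 h (0.28 to 0.76). The remaining accessory subunits lay between -0.56 (Ndufab1, the mitochondrial acyl carrier protein) and 0.44 (Ndufb9) at 48 h and were not called.

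Complex II, succinate dehydrogenase, is encoded by nuclear genes alone and also belongs to the TCA cycle. None of its 4 genes was called at any time by its brightest probe. Sdhd, a membrane anchor, had ratios of -0.55, -0.45, -0.64 and -0.41 on the NT, S, C and CS arrays at 48 h (-0.51 ± 0.07), and Sdha, the flavoprotein, 0.50, 0.43, -0.01 and 0.29 (0.30 ± 0.06). Sdhd was below 0 on all 4 arrays and Sdha above 0 on 3 of 4, and both stayed under 1.5-fold. Sdhb, the iron-sulfur subunit, was at 0.11 ± 0.06 and Sdhc, the other anchor, at -0.03 ± 0.05, each by its brightest probe. Second probes of Sdhb (-1.19) and Sdhc (-0.98) were called lower at 48 h.

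In complex III, the hinge protein gene Uqcrh, whose acidic product sits beside cytochrome c1, was higher at all 3 times. Its ratios on the NT, S, C and CS arrays were 0.38, 0.63, 0.68 and 0.74 at 6 h, 0.69, 0.67, 0.71 and 0.69 at 24 h, and 1.08, 1.11, 0.94 and 0.73 at 48 h. All 12 arrays were above 0, and the CS array at 48 h overlapped those at 6 h. The fitted ratios were 0.61 ± 0.08, 0.69 ± 0.08 and 0.97 ± 0.08 (limma adjusted p = 1.25e-04, 6.86e-05 and 7.72e-07). Uqcrb, a small subunit near the ubiquinone site, was lower at 48 h, with -0.88, -1.003, -0.86 and -1.16 on the 4 arrays, against -0.40, -0.66, -0.71 and -0.40 at 6 h. The sets did not overlap (-0.98 ± 0.07 at 48 h, limma adjusted p = 4.20e-07). Uqcrc2, a core protein, was lower at -0.74 ± 0.07, whereas Uqcrfs1, the Rieske iron-sulfur protein, stood at 0.54 ± 0.05 and Uqcrc1, the other core protein, at -0.26 ± 0.05, neither of them called.

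Complex IV, cytochrome c oxidase, held the member with the highest ratio. Cox7a1 encodes the isoform of subunit VIIa known from heart and skeletal muscle and from brown fat, and it lies at chromosome 7, 30184171 to 30186030, in GRCm38.p6. Its ratios on the NT, S, C and CS arrays were 0.74, 0.86, 0.80 and 0.87 at 6 h, 1.05, 1.40, 1.32 and 1.16 at 24 h, and 2.64, 2.15, 2.32 and 2.15 at 48 h. The arrays of the 3 times did not overlap. The gene was 4.97-fold higher in co-cultured cells at 48 h (2.31 ± 0.10, limma adjusted p = 2.24e-08), beside 0.82 ± 0.10 at 6 h (adjusted p = 1.11e-04) and 1.23 ± 0.10 at 24 h (adjusted p = 1.39e-05). Cox6c, a small ubiquitous subunit, was the other gene of the complex called higher at 48 h, with 0.85, 0.84, 0.54 and 0.57 on the 4 arrays, against -0.25, 0.03, 0.00 and 0.10 at 6 h (0.70 ± 0.07 at 48 h, limma adjusted p = 3.86e-06).

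A further 3 genes of complex IV were lower at 48 h. Cox4i1, the ubiquitous form of the largest nuclear subunit, gave -1.39, -1.34, -1.23 and -1.29 on the NT, S, C and CS arrays at 48 h and -0.16, -0.11, -0.34 and -0.14 at 6 h. At 24 h it was measured on the C and CS arrays only (-0.52 and -0.28), since the other spots were flagged as outliers by the scanner software. The 48 h values lay below all others, at 2.48-fold lower in co-cultured cells (-1.31 ± 0.07, limma adjusted p = 2.40e-07). Cox7c, a small membrane subunit, gave -1.20, -1.32, -1.15 and -1.16 at 48 h, -0.83, -0.30, -0.75 and -0.88 at 24 h and -0.56, -0.43, -0.57 and -0.55 at 6 h. It was lower at 24 h (-0.69 ± 0.09) and at 48 h (-1.21 ± 0.09, limma adjusted p = 3.02e-07) by its brightest probe, and a second probe went the other way, as given below. Cox6b1, the subunit facing the intermembrane space, was at -0.79 ± 0.05 at 48 h.

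**Figure D2:**
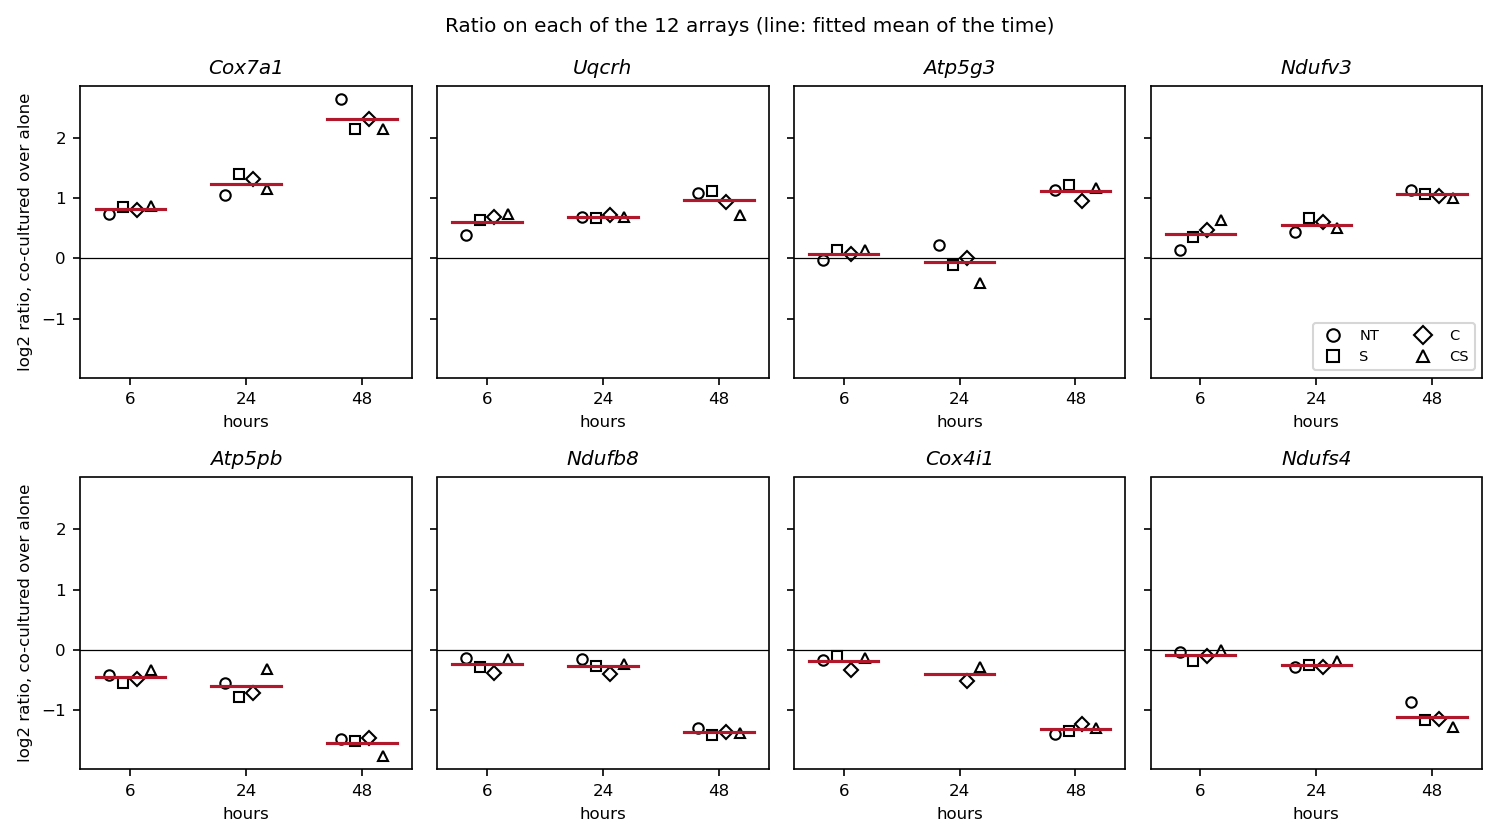
Log2 ratio of co-culture over alone on each of the 12 arrays against hours for 8 members, with 1 symbol per treatment (NT, S, C, CS) and a red line at the fitted mean of each time. Cox7a1 lay at 2.15 to 2.64 at 48 h, above every earlier array, and Ndufb8 at -1.41 to -1.29, below every earlier array.

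Genes that encode alternative forms of 1 subunit had different ratios for most of the subunits examined, while those of subunit VIa had close ones. For subunit VIIa, Cox7a1 was at 2.31 at 48 h while Cox7a2, the form found in most tissues, was at -0.08 ± 0.06, and Cox7a2l, whose product joins complexes III and IV into supercomplexes, at 0.38 ± 0.05. For subunit IV, Cox4i1 was lower at -1.31, and Cox4i2, the form linked to low oxygen and lung, was at -0.01 ± 0.05 but well above background on only 10 arrays in co-cultured cells and 7 in cells alone. For subunit VIa, Cox6a1 and the muscle form Cox6a2 were at 0.45 and 0.46, and for subunit VIb, Cox6b1 was lower at -0.79 while the testis form Cox6b2 was at 0.23 on 11 and 7 arrays above background. Ndufa4l2, the paralog of Ndufa4 known as a target of hypoxia-inducible factor, was at 0.32 ± 0.04, and Ndufa4 at -0.69. The c-ring of the ATP synthase is built from a single mature protein encoded by 3 genes, of which Atp5g3 was higher at 1.12, while Atp5g1 (0.05 ± 0.04) and Atp5g2 (-0.12 ± 0.06) were not called. A gene that was not called may still differ by less than 1.5-fold.

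**Figure D3:**
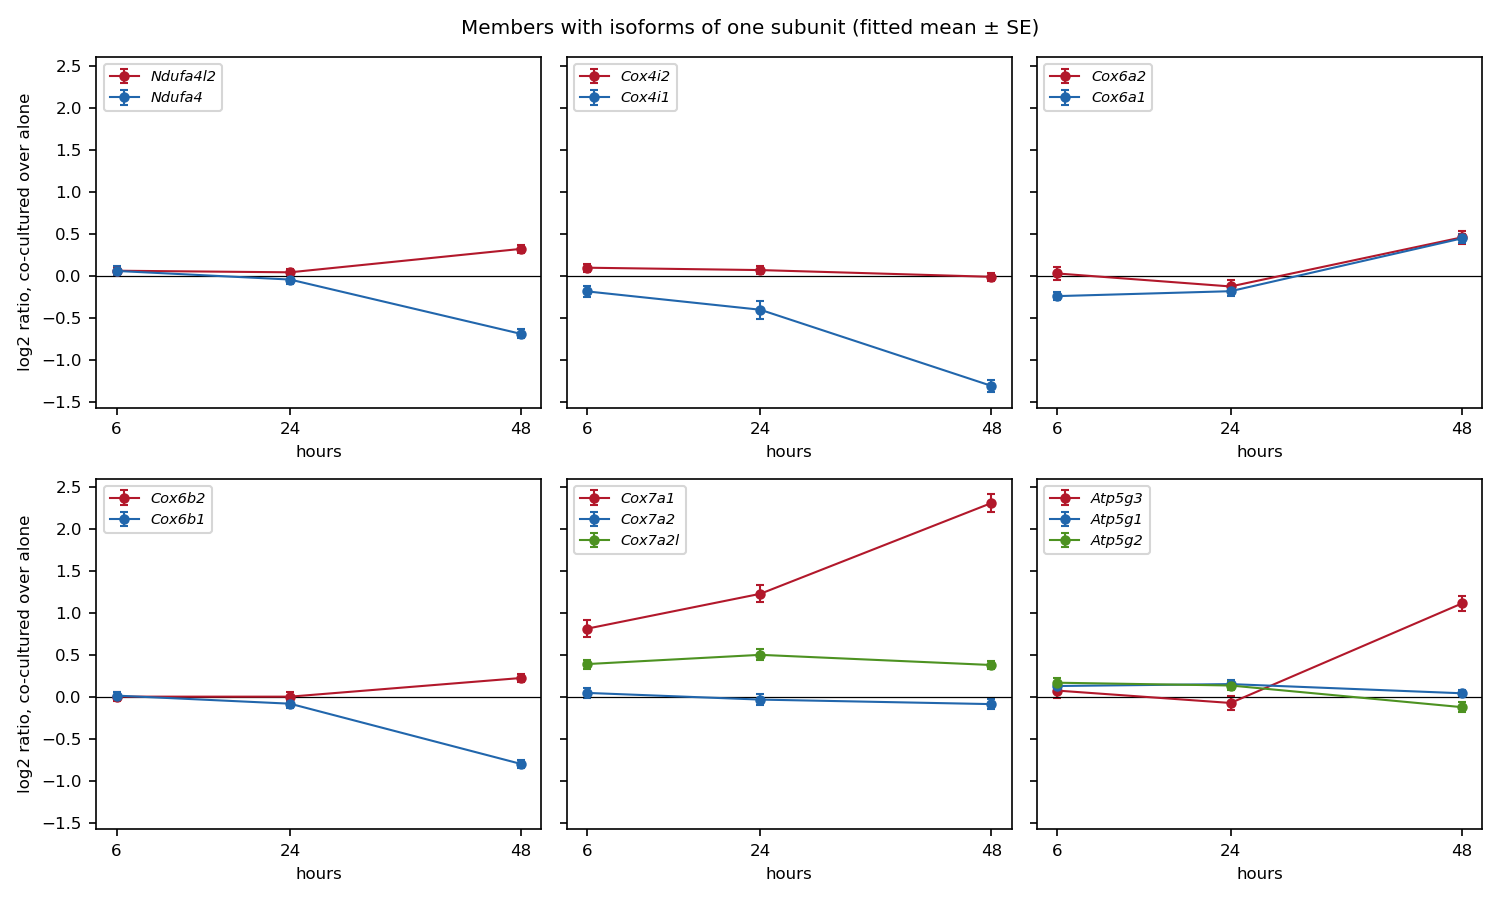
Fitted log2 ratio of co-culture over alone, with the SE of the fit as bars, at 6, 24 and 48 h for genes that encode alternative forms of a subunit, 1 panel per subunit and 1 line per gene. At 48 h Cox7a1 stood at 2.31 beside Cox7a2 at -0.08, Cox4i1 at -1.31 beside Cox4i2 at -0.01, and Atp5g3 at 1.12 beside Atp5g1 at 0.05 and Atp5g2 at -0.12.

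The ATP synthase had members on both sides. In the F1 head and central stalk, where ATP is formed, 0 of 5 were higher and 2 lower at 48 h, namely Atp5e (epsilon, -0.85 ± 0.05) and Atp5d (delta, -0.80 ± 0.06). The gamma subunit gene Atp5c1 was at -0.58 ± 0.05, just under the 1.5-fold threshold, whereas the catalytic subunit Atp5b was at 0.35 and Atp5a1 at -0.13. In the peripheral stalk, which holds the head still, all 4 genes had ratios below 0 by their brightest probes at 48 h and 2 were lower. Atp5pb (subunit b) gave -1.47, -1.50, -1.46 and -1.76 on the NT, S, C and CS arrays at 48 h, -0.55, -0.79, -0.71 and -0.31 at 24 h and -0.41, -0.54, -0.49 and -0.33 at 6 h. The 48 h arrays lay below all earlier ones, and the gene was 2.93-fold lower in co-cultured cells at 48 h (-1.55 ± 0.09, limma adjusted p = 6.98e-08) and lower at 24 h (-0.59 ± 0.09). Atp5j (coupling factor 6) was at -0.75 ± 0.07, Atp5o (the oligomycin sensitivity protein) at -0.43 and Atp5h (subunit d) at -0.34, with a second Atp5h probe at 0.09.

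Of the 3 c-ring genes, Atp5g3 was called, with 1.13, 1.22, 0.96 and 1.16 on the NT, S, C and CS arrays at 48 h, 0.23, -0.11, 0.01 and -0.40 at 24 h and -0.03, 0.14, 0.07 and 0.14 at 6 h. Only the arrays at 48 h stood apart, at 2.17-fold higher in co-cultured cells (1.12 ± 0.08, limma adjusted p = 5.01e-07). Of the 5 small membrane subunits, which help pair the synthase into dimers, 3 were higher and 1 lower. Atp5k (subunit e) was at 0.86 ± 0.07, Atp5l (subunit g) at 0.62 ± 0.05 and Atp5mpl (a small proteolipid) at 0.60 ± 0.06, whereas Atp5md, the gene of the dimer-associated protein DAPIT, was 1.89-fold lower at -0.92 ± 0.06. Atp5j2 (subunit f) stood at -0.49, -0.53 and -0.48 at 6, 24 and 48 h by its brightest probe and at 0.21, 0.10 and 0.34 by the other, and was not called by either.

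Calls close to the 1.5-fold threshold rested on single arrays in 6 members. At 48 h Atp5mpl (0.54) and Ndufa10 (-0.56) were not called without the NT array, Ndufa12 (-0.55) without the CS array, and Ndufa6 without the S array (-0.58) or the CS array (-0.56). Uqcrh at 6 h was not called without the CS array (0.53), nor Atp5pb at 24 h without the S array (-0.53) or the C array (-0.54). The other calls at 6, 24 and 48 h held when any 1 array was left out. Under median centring without loess 5 members lost their call at 48 h, namely Atp5e (-0.51), Ndufa2 (-0.54), Ndufa4 (-0.41), Ndufa12 (-0.40) and Uqcrc2 (-0.57), all of them still below 0.

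Promoters of 4 members are shown, the highest (Cox7a1) beside its ubiquitous paralog (Cox7a2), which did not pass the test, and the lowest (Atp5pb) beside a member of the same enzyme that was higher (Atp5g3). Sequences are from RefSeq (GRCm38.p6) and run 5′ to 3′ on the strand of the gene, with 250 bases before and 50 after the start. Capitals mark matches to 4 motifs searched on both strands, the palindromic NRF1-type site (GCGCA, any base, then GCGC), the ETS-type site CCGGAAG, the YY1-type site AAGATGG and the core ACGTG of the hypoxia response element, which is also part of the E-box CACGTG. The windows are chr7:30183921-30184220 on the plus strand (Cox7a1) and, on the minus strand, chr9:79759804-79760103 (Cox7a2), chr3:105959214-105959513 (Atp5pb) and chr2:73911277-73911576 (Atp5g3).
Cox7a1: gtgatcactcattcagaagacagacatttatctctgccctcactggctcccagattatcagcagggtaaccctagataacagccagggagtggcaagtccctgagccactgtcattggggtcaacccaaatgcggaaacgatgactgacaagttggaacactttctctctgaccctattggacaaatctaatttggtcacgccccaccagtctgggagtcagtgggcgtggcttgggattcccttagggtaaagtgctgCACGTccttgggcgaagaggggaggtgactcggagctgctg
Cox7a2: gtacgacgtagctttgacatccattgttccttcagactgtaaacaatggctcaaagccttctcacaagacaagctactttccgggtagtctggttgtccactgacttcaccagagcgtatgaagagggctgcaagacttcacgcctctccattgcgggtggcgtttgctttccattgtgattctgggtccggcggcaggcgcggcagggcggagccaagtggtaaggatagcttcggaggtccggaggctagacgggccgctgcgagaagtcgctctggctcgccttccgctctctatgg
Atp5pb: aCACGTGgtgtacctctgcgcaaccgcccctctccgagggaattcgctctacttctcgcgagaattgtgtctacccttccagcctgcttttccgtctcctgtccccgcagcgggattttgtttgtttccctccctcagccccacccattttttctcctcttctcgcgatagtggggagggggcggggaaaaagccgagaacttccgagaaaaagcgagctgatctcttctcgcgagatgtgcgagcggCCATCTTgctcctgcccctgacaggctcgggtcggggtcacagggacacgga
Atp5g3: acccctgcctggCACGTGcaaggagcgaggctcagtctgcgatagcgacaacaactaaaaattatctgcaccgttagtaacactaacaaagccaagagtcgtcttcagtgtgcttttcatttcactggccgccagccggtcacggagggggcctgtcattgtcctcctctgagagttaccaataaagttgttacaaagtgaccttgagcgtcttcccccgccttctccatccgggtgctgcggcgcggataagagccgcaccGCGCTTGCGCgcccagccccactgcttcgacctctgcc
The Cox7a1 window held the ACGTG core on the reverse strand and none of the other motifs, and the Cox7a2 window held none. Atp5pb had a YY1-type match across the start site and Atp5g3 an NRF1-type match after it, and both held an E-box near the far end. A match is a description of letters, not of a bound factor.

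Promoters were found for 67 of the 82 members, 72 in all, since 5 genes had 2 each. The NRF1-type site was in 25% of the 72, beside 4.6% of 32851 promoters of the same length, the ETS-type site in 23.6% beside 8.86%, the YY1-type site in 15.3% beside 6.34%, and the ACGTG core in 23.6% beside 19.6%. Nuclear respiratory factor 1, the GA-binding protein of the ETS family and YY1 are the factors for which such sites in respiratory chain promoters are known. Among members called at 48 h, the NRF1-type site was in 2 of 6 promoters of 6 higher genes and 2 of 17 promoters of 15 lower genes, and the ETS-type site in 3 of 6 and 4 of 17. The YY1-type site was in 0 of 6 and 5 of 17, and the ACGTG core in 4 of 6 and 2 of 17. The 49 promoters of 46 members not called held these sites in 14, 10, 6 and 11 cases, in the same order. These counts are few and were not tested.

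Probes for 1 gene did not always give the same ratio. At 48 h the 22 members with more than 1 probe above background had a median range between probes of 0.69 (log2), beside 0.38 over 3422 genes with several probes. The range reached 1 or more in 6 of 22 (27.3%) against 428 (12.5%) of all such genes, and in 0 of 22 at 6 and 24 h. Calls of opposite direction were found in 1 of 22 (4.55%), against 43 (1.26%). Of the 13 members with any probe called at 48 h, 3 (Uqcrh, Uqcrb and Atp5pb) had all probes called the same way. Over all genes with several probes this held for 419 of 1631, a similar share.

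The gene with opposite calls was Cox7c, at -1.21 by its brightest probe and 0.78 by the other. Uqcr10, a small subunit of complex III, was at -0.06 and -0.11 by 2 probes and -1.59 by another. Sdhb was at 0.11 against -1.19, Ndufa5 at 0.07 against -1.20, Atp5c1 at -0.58 against 0.50, Cox7a2l at 0.38 and 0.40 against -0.67, Sdhc at -0.03 against -0.98 and Ndufb6 at 0.01 against -0.73, each with the brightest probe first. All of these but Cox7c and Atp5c1 read as not called by the brightest probe and as lower by another. Which transcript form each probe reports is not given in the sources used here. The 5 probes of Atp5l gave 0.62, 0.70, 1.12, 0.31 and 0.69, Ndufv3 gave 1.06 and 0.49 and Atp5k 0.86 and 0.35, all above 0. Of these, the Atp5l probe at 0.31 and the second probes of Ndufv3 and Atp5k were not called. With the dimmest probe of each gene in place of the brightest, a choice made after seeing the data, 7 members were higher and 25 lower at 48 h, beside 13.2% and 15.6% of all genes. With the mean of all probes Cox7c stood at -0.22 at 48 h and was not called.

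**Figure D4:**
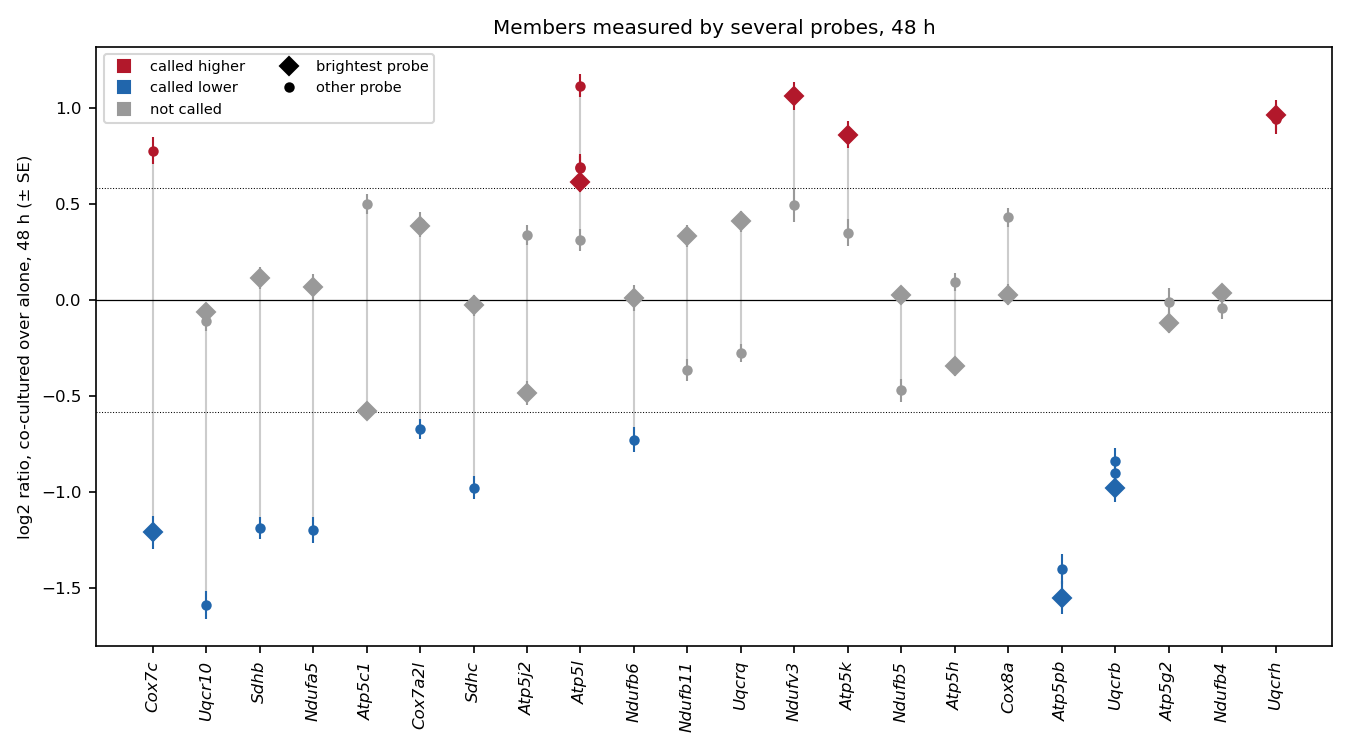
Log2 ratio of co-culture over alone at 48 h for each probe of the 22 members with several probes, 1 column per gene, with the SE of the fit as bars, diamonds for the brightest probe, circles for the others, colours for the call and dotted lines at 1.5-fold. The probes of Cox7c lay at -1.21 and 0.78 and those of Uqcr10 at -0.06, -0.11 and -1.59, whereas both probes of Atp5pb were called lower.

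More members changed their ratio between 48 and 24 h than between 24 and 6 h. At 24 against 6 h, 0 members changed in either direction by limma, with 1.68% of all genes higher and 0.661% lower at 24 h, and 10 of 82 members (12.2%) had an unadjusted p under 0.05, beside 26.6% of all genes. At 48 against 24 h, 8 members were higher and 16 lower, beside 9.33% and 11.6% of all genes. At 48 against 6 h, 6 were higher and 17 lower (7.32% and 20.7% of members), beside 11.9% and 12.2%. These comparisons share the arrays at 48 h, and 20 members were called in both. Of the 23 called at 48 against 6 h, 9 lower and 1 higher were in complex I, 0 in complexes II and III, 3 and 3 in complex IV and 5 lower and 2 higher in complex V. The genes with the widest difference were Cox7a1 (a 2.82-fold higher ratio, limma adjusted p = 1.25e-05) and Atp5g3 (1.04 ± 0.12) on the higher side and Cox4i1 (-1.13 ± 0.10), Ndufb8 (-1.12 ± 0.08) and Atp5pb (-1.11 ± 0.12) on the lower. Cox6a1 (0.69 ± 0.07) and Atp5c1 (-0.61 ± 0.07) were called for this difference and not at 48 h itself.

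Levels in each culture were compared between times, with the 12 arrays scaled between each other. Because each time had its own slide, a slide effect common to both dyes would shift both levels and leave the ratio unchanged. The levels therefore describe each channel, and which culture moved a ratio cannot be told from them. Cox7a1 had log2 levels of 12.89, 12.45, 12.33 and 12.27 in co-cultured cells at 48 h (NT, S, C and CS), against 11.32, 10.86, 10.77 and 10.67 at 6 h. In cells alone it had 10.25, 10.30, 10.01 and 10.12 at 48 h, against 10.59, 10.00, 9.97 and 9.80 at 6 h. The level was higher at 48 h in co-cultured cells (1.58 ± 0.08, limma adjusted p = 7.53e-07), and in cells alone the difference was 0.08 ± 0.13 and was not called. Ndufb8 and Cox4i1 were lower at 48 than at 6 h in co-cultured cells (-0.93 ± 0.07 and -0.84 ± 0.10), with 0.18 ± 0.09 and 0.29 ± 0.12 in cells alone, neither called.

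Ndufs4 showed the other arrangement. In co-cultured cells its levels were 13.52, 13.45, 13.57 and 13.30 at 48 h against 13.33, 13.37, 13.69 and 13.58 at 6 h, a difference of -0.03 ± 0.12. In cells alone they were 14.38, 14.61, 14.73 and 14.57 at 48 h against 13.37, 13.56, 13.79 and 13.59 at 6 h, a difference of 1.00 ± 0.09 that was called (limma adjusted p = 1.68e-04). Its ratio of -1.11 at 48 h thus stood beside a higher measured level in cells alone, not beside a lower one in co-cultured cells. Slide and time are not told apart in either level. Atp5pb differed in both channels, at -0.60 ± 0.07 in co-cultured cells, which was called lower, and 0.50 ± 0.09 in cells alone, which stayed under 1.5-fold. Ndufc1, a small accessory subunit of complex I, was higher at 48 h in both cultures (0.85 and 0.83), and its ratio at 48 h was -0.32, not called.

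Over the 82 members, 11 were higher and 9 lower in co-cultured cells at 48 against 6 h, beside 14.2% of all genes in each direction. The higher ones included Cox6c (1.06) and Atp5k (0.99), and the lower ones Cox6b1 (-1.10), Ndufa11 (-1.04), Cox7c (-1.01) and Ndufs1 (-0.96). In cells alone, 6 were higher (Ndufs4, Ndufc1, Atp5o, Atp5j, Atp5h and Ndufb3) and 0 lower, beside 7.49% and 6.15%, with 40 of 82 members (48.8%) and 44.1% of all genes at an unadjusted p under 0.05. At 24 against 6 h, 1 member was higher and 0 lower in co-cultured cells (5.1% and 3.79% of all genes), and 2 were higher and 0 lower in cells alone (5.25% and 5.88%). Without the 3 arrays whose labels are in doubt those were 0 in co-cultured cells and 1 in cells alone.

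**Figure D5:**
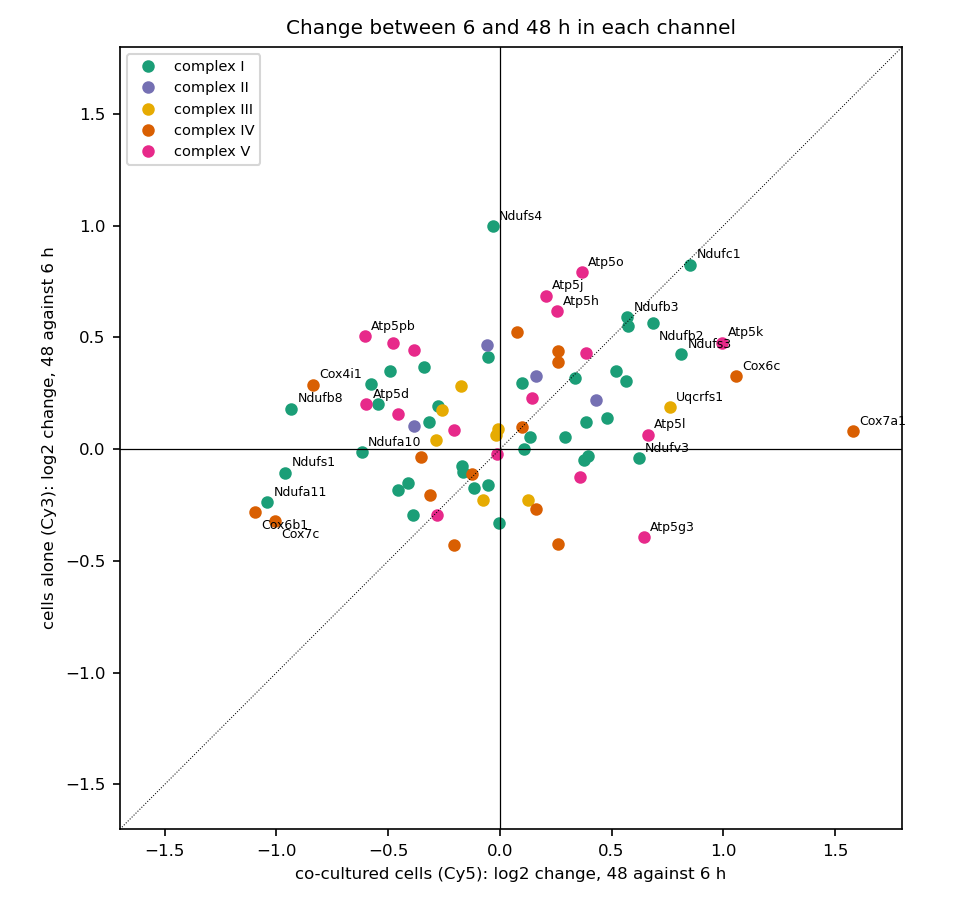
Difference in log2 level, 48 against 6 h, for 81 of the 82 members in co-cultured cells (Cy5, horizontal axis) and in cells alone (Cy3, vertical axis), coloured by complex, with the diagonal of equal differences dotted. Cox7a1 lay at 1.58 in co-cultured cells and 0.08 in cells alone, and Ndufs4 at -0.03 in co-cultured cells and 1.00 in cells alone.

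The hormones did not change the co-culture ratio of any member past the threshold. For S, C and CS against NT, 0 of 82 members and 0% of all genes were called by limma, and 6, 3 and 2 members had an unadjusted p under 0.05 (13.1%, 9.84% and 9.18% of all genes). Within each culture a few members were called. Both cultures of an array share its spots, so an array effect on a probe would move both levels alike. Agreement between the cultures is therefore not separate evidence of a hormone effect. Sdhc had levels of 14.35, 14.20 and 14.40 in cells alone on the C arrays at 6, 24 and 48 h and 14.36, 14.43 and 14.47 on the CS arrays, against 13.70, 13.65 and 13.79 on the NT arrays. The C and CS arrays lay above the NT arrays at each time. Sdhc was higher with C (0.61 ± 0.08) and with CS (0.71 ± 0.08) in cells alone and with CS in co-cultured cells (0.73 ± 0.09). With S it also stood above NT, at 0.35 ± 0.08 in cells alone and 0.37 ± 0.09 in co-cultured cells, and was not called. The S arrays at 6 and 24 h are among those in doubt.

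Cox6b1 was higher with C and with CS in both cultures, which share these arrays. With S it stood above NT at 0.21 ± 0.11 in co-cultured cells and 0.22 ± 0.11 in cells alone, not called. In co-cultured cells its levels were 11.05, 11.17 and 10.14 on the C arrays at 6, 24 and 48 h and 11.22, 11.45 and 9.99 on the CS arrays, against 10.46, 10.64 and 9.23 on the NT arrays. The differences from NT were 0.68 ± 0.11 (C) and 0.78 ± 0.11 (CS) in co-cultured cells, and 0.68 ± 0.11 and 0.80 ± 0.11 in cells alone. Ndufb2, an accessory subunit of complex I, was higher with CS in co-cultured cells (0.59 ± 0.12), and with S it stood at 0.47 ± 0.12, not called. In co-cultured cells 1 member was thus higher with C and 3 with CS, beside 1.11% and 2.77% of all genes, and in cells alone 2 and 2, beside 0.144% and 1.11%. Without the 3 arrays in doubt, Sdhc and Cox6b1 were still called with C in cells alone (limma adjusted p = 0.0362 and 0.0499), and the other 6 calls were lost, with differences close to those over all arrays. In co-cultured cells these were 0.69 for Sdhc with CS, 0.68 and 0.72 for Cox6b1 with C and CS, and 0.52 for Ndufb2 with CS, and in cells alone 0.66 and 0.74 for Sdhc and Cox6b1 with CS.

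Genes that work with the chain were followed from lists. Of 51 assembly factors and related proteins tested, 2 were higher (Cox11 at 0.92 ± 0.06, needed to insert copper into complex IV, and Timmdc1 at 0.68 ± 0.05) and 18 lower at 48 h, beside 14.5% and 16.7% of all genes. The lowest were Tmem126a (-2.34 ± 0.11) and Sdhaf3 (-1.49 ± 0.07), which help build complexes I and II, and Tmem70 (-1.52 ± 0.08), which helps build the ATP synthase. Of 20 genes of the TCA cycle and the pyruvate dehydrogenase complex, 1 was higher (Mdh2 at 0.80 ± 0.06) and 9 lower, among them Dlat (-1.92 ± 0.10) and Dld (-1.88 ± 0.11), subunits of pyruvate dehydrogenase, and Idh3a (-1.42 ± 0.09). Of 15 electron carriers outside the rule, 1 was higher (Dhodh at 0.72 ± 0.07) and 4 lower, among them Etfa (-1.20 ± 0.06), which passes electrons from fatty acid oxidation, and cytochrome c1, Cyc1 (-0.74 ± 0.06). Cyc1 belongs to complex III, but its symbol is outside the rule, so the counts of that complex leave it out.

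Of 18 regulators of mitochondrial biogenesis, 0 were higher and 5 lower at 48 h, beside 14.5% and 16.7% of all genes. The lower ones included Tfam (-1.28 ± 0.08), which packages and transcribes mitochondrial DNA, and Ssbp1 (-1.34 ± 0.08), which binds its single strands. The list did not move as a whole, with a median of 0.08. Esrra (0.47 ± 0.05), Gabpb1 (0.44 ± 0.08), Gabpa (0.37 ± 0.07), Polrmt (0.37 ± 0.07) and Nrf1 (0.33 ± 0.06) stood above 0 and were not called. Of 17 oxygen-regulated genes, 6 were higher and 2 lower at 48 h, beside the same 14.5% and 16.7%. The higher ones included Higd1a (1.16 ± 0.07), Ldha (1.11 ± 0.08), Bnip3 (0.87 ± 0.06) and Egln1 (0.81 ± 0.08). The lower ones were Hif1a (-0.997 ± 0.09) and Fundc1 (-1.12 ± 0.06). At 6 and 24 h the assembly factors had 0 higher with 6 and 4 lower, and the TCA cycle 0 higher with 1 and 2 lower. The oxygen-regulated genes had 2 and 7 higher with 1 lower each time. Of all genes, 4.37% and 4.66% were higher and 5.23% and 3.68% lower at 6 and 24 h. The subunits encoded by mitochondrial DNA were not analysed here.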

How the data were processed

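Co-cultured cells and cells alone were compared on 12 Agilent 4x44k mouse arrays of 2 colours, 1 for each treatment and time. The authors scanned them with Agilent Feature Extraction (version 10.5.1.1 in the submitters' processing notes, 10.7.3.1 in the file headers), and the deposited scanner files hold median spot intensity and local background for both dyes, processed signals, flags and the log10 of the dye ratio (Cy5 divided by Cy3). The value table of the series matched these log10 values.

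Median intensities were corrected with normexp (offset 50) and loess within arrays in limma 3.58.1 (statmod 1.5.0, data.table version 1.17.8) under R 4.3.3. Control spots, outlier flags and spots whose local background exceeded 5 times the array median were left out. Of 39429 probes, 27508 were named through RefSeq accessions (20886 symbols), and 23135 were well above background on at least 3 arrays. Each gene was represented by its brightest probe, which gave 13919 genes to test. Ratios were fitted with lmFit and eBayes (mean trend) on time plus treatment, called at an adjusted p under 0.05 and 1.5-fold. For single channels, levels were scaled by Aquantile after loess and fitted alike. The fits were tested on simulated data. Of the members, 80 were well above background on all 12 arrays in both channels, and 14 lacked at least 1 array through left-out spots. The number of arrays limits the precision. The values of 1 member, which enters the counts and medians, are not reported here.

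Members and gene lists, with their roles and markers, were chosen with earlier results of these data known. Genes were named when called at 6 or 24 h or among the highest or lowest calls at 48 h. Extremes of a complex and members with probes called in opposite directions were also named. Tissue or oxygen related paralogs were named whatever their values. Further genes were named after their values were seen, such as the remaining calls at 48 h, those just under the threshold and those called in single channels. The sources do not give the loess or scaling used by the authors beyond their server. Figures were drawn with Python 3.11.15, pandas 2.3.3 and matplotlib 3.10.9. Alternatives covered the offset, the normalization, the filters, the probe per gene, the model, the fold minimum and single arrays. The mean spot signal could not be tried because the scanner files hold median spot signals.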

Additional observations from a re-analysis of the deposited data

Results flagged for a closer look

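Among 92 groups of 4 arrays formed by the named members at each time, 2 had an array far from the other 3, where chance gives about 1 in 20. Atp5pb at 48 h stood at -1.7565 (log2 ratio of co-culture over alone) on the CS array, below the other 3 arrays, and Cox7c at 6 h stood at -0.4332 on the S array, above the other 3.

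The ratio at 48 h differed from that at 6 h for 17 of the 32 named members tested, by the test of the difference in the limma fit. Time and slide cannot be told apart in it. Many of these members were named for their calls or extremes on the same 48 h arrays, so the count is no support for a difference. Over all 82 members 6 were higher and 17 lower, beside 11.9% and 12.2% of all genes. Among the named members the ratio was higher at 48 h for Cox7a1 (1.496), Atp5g3 (1.04), Cox6c (0.73), Cox6a1 (0.69), Ndufv3 (0.66) and Atp5l (0.60). It was lower at 48 h in complex I for Ndufb8 (-1.12), Ndufs4 (-1.03), Ndufs1 (-0.86), Ndufa11 (-0.80) and Ndufa4 (-0.75). In complexes IV and V it was lower for Cox4i1 (-1.13), Atp5pb (-1.11), Atp5md (-0.95), Atp5e (-0.83), Cox6b1 (-0.81) and Cox7c (-0.68).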

How the results depend on the processing

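Of the counts of calls and the medians by complex at 48 h, 289 values under alternatives stayed within the stated margins and 25 moved, of the medians at 6 and 24 h 147 stayed and 13 moved, and of the values of single called members 818 kept direction and call, 62 lost the call and 4 reversed. Without loess, on median-centred arrays, 60 members were called at 6 h and 60 at 24 h, 18 were higher at 48 h, and 59 and 57 changed at 48 against 24 h and 48 against 6 h. The medians at 48 h were then 0.00705, 0.189, 0.224, 0.236 and -0.0727 in complexes I to V, and Atp5pb (0.39) and Cox7c (0.31) reversed at 24 h. The median of complex V was -0.403 with the deposited log ratio. A 2-fold minimum left 0, 1 and 8 calls at 6, 24 and 48 h (3 higher and 5 lower at 48 h, beside 5.68% and 6.35% of all genes), and no fold minimum gave 40, 46 and 64 (26 higher and 38 lower at 48 h, beside 35.4% and 37.9%). Without the 3 arrays in doubt, 1 member in cells alone and 0 in co-cultured cells were called at 24 against 6 h. With the dimmest probe Cox7c was at 0.0453 at 24 h and 0.78 at 48 h. Leaving out 1 array at a time gave medians at 48 h of -0.145 to -0.104 (I), 0.0340 to 0.0624 (II), -0.0970 to -0.0489 (III), 0.0135 to 0.0838 (IV) and -0.374 to -0.316 (V), and 26 to 31 calls. The cause of these shifts was not tested. No paired analysis was possible because replicate numbers only follow the order of the arrays, and treatment is already a term of the fit.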
